A study of Rattus norvegicus with 3 samples.

Results

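Receptors for extracellular nucleotides were described in motor cortex of 3 male Sprague-Dawley rats. They were the 10 genes P2rx2, P2rx3, P2rx4, P2rx5, P2rx6, P2rx7, P2ry1, P2ry6, P2ry13 and P2ry14, taken by exact gene name from the 30957 genes of each deposited file, and each name stood in 1 row. All 3 animals, numbered 12, 24-4 and 33 in the labels, had cerebral ischemia and reperfusion, in which the blood supply of the brain is stopped and then let back, and were treated with electroacupuncture at GB20, and all carry a time of 8 weeks whose starting point the labels do not state. They form 1 group with 1 library per rat, so the data give levels and their spread between treated animals, and no effect of ischemia or of stimulation could be tested. Whether the tissue came from the lesioned or the intact side is not given in the sources used here.

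ATP leaves damaged and active cells and acts on P2X receptors, which are cation channels of 3 subunits opened by ATP, and on P2Y receptors, which are coupled to G proteins and also sense ADP, UDP or UDP-glucose. In the brain microglia use several of these receptors to detect injury, astrocytes answer nucleotides with calcium signals, and some P2X subunits are known best from neurons. The genes were grouped by their best known cell type in brain. P2rx4, P2rx7, P2ry6 and P2ry13 were taken as microglial, P2ry1 and P2ry14 as astrocytic, and P2rx2, P2rx3, P2rx5 and P2rx6 as neuronal. This grouping is background knowledge, since several of these receptors are also made by other cells, and whole tissue does not show which cell a transcript came from. In such tissue fewer cells of a type and less RNA per cell cannot be told apart.

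P2rx4 and P2rx7 are neighbours, 27.9 kb apart on chromosome 12 of Rnor_6.0, and P2ry13 lies in a cluster of P2Y genes on chromosome 2. Their start regions are shown because these 3 microglial genes differed in the order of the rats. Any link between sequence and that order was not tested. Each sequence is the 250 bases before the gene's start in RefSeq (build GRCr8), and capitals mark the letters GAGGAA on either strand, a core of sites bound by PU.1, a transcription factor of myeloid cells.
P2rx4 (chr12:39523090-39523339, minus strand): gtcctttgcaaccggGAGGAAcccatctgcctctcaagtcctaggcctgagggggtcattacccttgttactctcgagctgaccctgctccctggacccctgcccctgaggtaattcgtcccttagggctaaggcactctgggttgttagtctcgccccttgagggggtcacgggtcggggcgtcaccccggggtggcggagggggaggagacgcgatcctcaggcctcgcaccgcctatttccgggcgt
P2rx7 (chr12:39594923-39595172, minus strand): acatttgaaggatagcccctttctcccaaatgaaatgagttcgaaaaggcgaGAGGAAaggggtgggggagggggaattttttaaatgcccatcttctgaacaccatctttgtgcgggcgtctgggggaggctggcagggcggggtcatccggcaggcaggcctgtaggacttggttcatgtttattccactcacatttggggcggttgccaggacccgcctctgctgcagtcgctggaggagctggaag
P2ry13 (chr2:145622785-145623034, minus strand): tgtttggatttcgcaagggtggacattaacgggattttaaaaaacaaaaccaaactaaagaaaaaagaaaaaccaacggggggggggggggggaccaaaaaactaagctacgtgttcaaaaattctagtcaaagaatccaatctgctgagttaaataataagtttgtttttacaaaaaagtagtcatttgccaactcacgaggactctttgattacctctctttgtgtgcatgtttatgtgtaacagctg
P2rx4 and P2rx7 each held GAGGAA 1 time, and P2ry13 held none in this window. The letters stood in 3 of the 8 windows that the RefSeq table has for 7 of the receptors, the third being that of P2rx6, and in 23.3% of all 33469 windows of the same length. The windows also differed in base composition. GC content was 64.0% for P2rx4 and 56.0% for P2rx7, against 37.6% for P2ry13, which lay at percentile 9.5 of all windows, and CG dinucleotides numbered 15, 9 and 5 in the same order of genes. The windows of the astrocytic genes stood far apart, with 69.2% GC for P2ry1 and 47.6% for P2ry14. P2rx2, P2rx5 and P2ry6 had no entry in the table.

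The values are in FPKM (fragments per kilobase and per 1000000 fragments), which makes levels of different genes comparable per length. The libraries held an estimated 13020000 to 17260000 fragments, so that an FPKM of 1 rests on 13.02 to 17.26 fragments per kilobase. Of 13754 genes tested with limma, 14 (0.102%) were called variable between the rats at an adjusted p under 0.05, meaning that their spread exceeded that of genes with a like level. The libraries differed in composition. All 10 microglial markers and all 7 markers of activated microglia and macrophages were highest in rat 33 and lowest in rat 12, while 6 of 7 neuronal markers were lowest in rat 33. The order was shared by other glia: all 5 oligodendrocyte markers were highest in rat 33 and 4 of them lowest in rat 12, and of 8 astrocyte markers 5 were highest in rat 33 and 7 lowest in rat 12. Choroid plexus markers summed to 3290, 126 and 13000 FPKM in rats 12, 24-4 and 33, and 3 of the 4 (Ttr, Kl and Clic6) were among the 14 calls. Markers of blood leukocytes summed to 3.37, 7.29 and 5.32 FPKM, with Mpo listed at 0 in all rats and Ms4a1 listed at 0 in rats 12 and 24-4.

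P2rx4 had the highest level of the 10 receptors, at 12.3 ± 2.19 FPKM (SD, n = 3 rats, here and below). The gene (chromosome 12, 39308025 to 39325673, minus strand) encodes the P2X4 subunit, a channel found in microglia and in neurons. Its values were 12.9, 14.2 and 9.94 FPKM in rats 12, 24-4 and 33. Rat 33 was thus the lowest, and the highest rat exceeded it 1.43-fold, the narrowest range of the 10 genes. Its mean stood at percentile 55.2 of the tested genes. P2rx4 alone made up 42.3%, 45.7% and 22.8% of the summed FPKM of the 10 receptors, which was 30.4, 31.2 and 43.5 in the same order of rats.

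P2rx7 (chromosome 12, 39353613 to 39396042, minus strand) encodes a channel that opens at high ATP and drives release of interleukin-1 beta through the NLRP3 inflammasome. It had 5.06, 3.34 and 6.77 FPKM in rats 12, 24-4 and 33, a mean of 5.06 ± 1.72. Rat 33 was the highest and rat 24-4 the lowest, a 2.03-fold range. P2rx7 was lower than P2rx4 in every rat, with P2rx4 minus P2rx7 at 1.19, 1.81 and 0.49 on the log2(FPKM + 1) scale, a difference of 1.17 ± 0.66. The gap was smallest in rat 33, where P2rx4 was lowest and P2rx7 highest.

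P2ry13 (chromosome 2, 149430854 to 149432106, minus strand) encodes a receptor for ADP. Its values of 3.17, 3.47 and 8.15 FPKM in rats 12, 24-4 and 33 gave a mean of 4.93 ± 2.79. At its locus length of 1253 bases they correspond to 61, 75 and 133 fragments, each within 0.053 of a whole number. The exact 95% Poisson interval was 2.42 to 4.07 FPKM in rat 12, 2.73 to 4.35 in rat 24-4 and 6.83 to 9.66 in rat 33. The interval of rat 33 lay above those of the other rats, which overlapped each other. These intervals cover counting error only, and compare libraries, not conditions.

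P2ry6 (chromosome 1, 165972440 to 165997751, minus strand) encodes a receptor for UDP that starts phagocytosis in microglia. It had 1.69, 3.57 and 5.58 FPKM in rats 12, 24-4 and 33, a mean of 3.61 ± 1.94. The 3.3-fold range from rat 12 to rat 33 was the widest of the microglial group. P2ry6 minus P2ry13 was -0.63, 0.03 and -0.48 on the log2(FPKM + 1) scale, so these receptors did not keep 1 order.

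The astrocytic receptors lay near 1 FPKM. P2ry14 (chromosome 2, 149331948 to 149347796, minus strand), whose product senses UDP-glucose, had 0.7, 0.531 and 1.87 FPKM in rats 12, 24-4 and 33, a mean of 1.03 ± 0.729. Rat 33 was the highest, 2.67-fold above the next. P2ry1 (chromosome 2, 151314818 to 151320319, plus strand) encodes an ADP receptor that raises calcium in astrocytes and neurons. It had 1.27, 0.71 and 0.99 FPKM, a mean of 0.99 ± 0.279, with rat 12 highest. P2ry14 minus P2ry1 was -0.42, -0.16 and 0.53 on the log2(FPKM + 1) scale, so neither was higher in all rats.

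P2rx6 stood far above the other neuronal receptors. P2rx6 (chromosome 11, 87435185 to 87445219, plus strand) encodes a subunit that forms few channels by itself and joins P2X2 or P2X4 subunits. It had 5.16, 4.44 and 9.17 FPKM in rats 12, 24-4 and 33, a mean of 6.25 ± 2.55, and took 91%, 83.5% and 89.6% of the summed FPKM of the neuronal group. Rat 33 was the highest, by 1.78-fold over the next, although 6 of the 7 neuronal markers were lowest there. In 20.7% of all tested genes the order of rats was 33, 12 and 24-4, as it was for P2rx6, P2rx7 and P2ry14 and for the 4 choroid plexus markers. The part of that tissue in these receptors was not tested.

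P2rx2, P2rx3 and P2rx5 were close to the detection floor. P2rx3 and P2rx2 encode subunits of the ATP channel of sensory neurons, and P2rx5 encodes a further P2X subunit. P2rx3 had 0.109, 0.255 and 0.627 FPKM in rats 12, 24-4 and 33, equal to 1.67, 4.39 and 8.16 fragments per kilobase. P2rx5 had 0.302, 0.355 and 0.241 FPKM, and P2rx2 had 0.101, 0.269 and 0.193 FPKM, or 1.55 to 4.64 fragments per kilobase. A gene of 1 kilobase with 3 fragments would have 0.195, 0.174 and 0.23 FPKM in the 3 libraries. Differences between rats in these 3 genes therefore rest on few fragments.

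**Figure D1:**
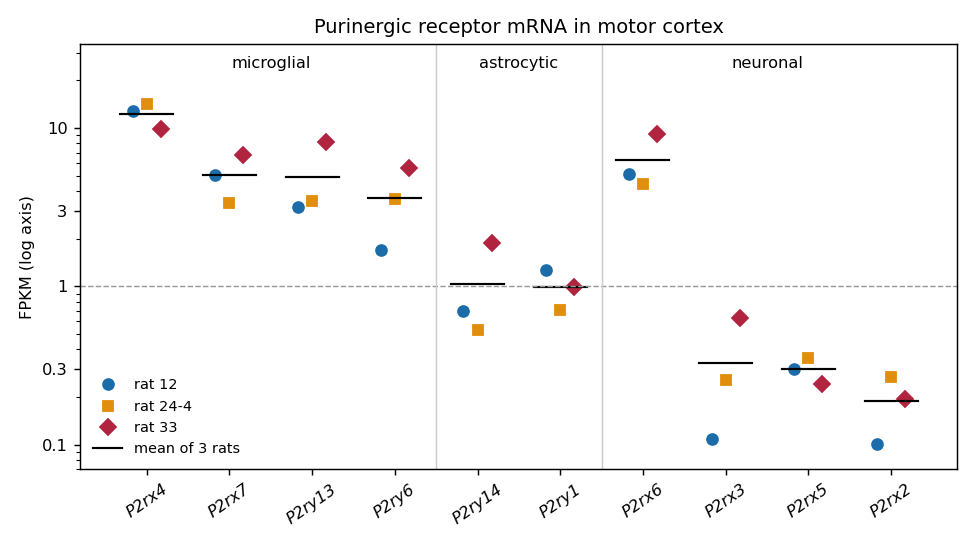
FPKM on a log axis of the 10 receptors in rats 12, 24-4 and 33 (symbols), with the mean of the 3 rats (black line), ordered by level within the microglial, astrocytic and neuronal groups; the dashed line is 1 FPKM. P2rx4 is the highest at 12.3, P2rx6 is the one neuronal receptor above 1, and rat 33 is lowest for P2rx4 and highest for the other 3 microglial receptors.

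With the 10 levels in order, some neighbours differed by more than the larger of their SDs and others did not. Only neighbours were compared in this way, so the result does not sort the genes into separate steps. On the log2(FPKM + 1) scale P2rx4 (3.72 ± 0.25) exceeded P2rx6 (2.80 ± 0.48) by 0.92, which is more than the larger of their SDs. Within rats that difference had an SD of 0.72. P2rx4 was the higher in all 3, but in rat 33 the genes were close, at 9.94 and 9.17 FPKM. P2rx6, P2rx7 (2.56 ± 0.42), P2ry13 (2.47 ± 0.63) and P2ry6 (2.11 ± 0.65) followed, and neighbours among them differed by less than the larger SD. Within rats, however, P2rx6 minus P2rx7 was 0.24 ± 0.20 and P2rx6 was the higher in all 3, while P2rx7 exceeded P2ry13 in 1 rat and P2ry13 exceeded P2ry6 in 2. P2ry6 exceeded P2ry1 (0.98 ± 0.20) by 1.13, again more than the larger SD, and P2ry1 and P2ry14 (0.97 ± 0.49) did not differ beyond theirs. Within rats P2ry6 minus P2ry1 was 0.25, 1.42 and 1.72 in rats 12, 24-4 and 33 (SD 0.78), so the gap was small in rat 12. P2ry14 exceeded P2rx3 (0.39 ± 0.28) by 0.57, P2rx3 and P2rx5 (0.38 ± 0.06) differed by 0.02, and P2rx2 was lowest at 0.25 ± 0.10. P2rx5 exceeded P2rx2 by 0.13, also more than the larger SD, though both are close to the detection floor.

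Microglial receptors had higher medians than the astrocytic and neuronal ones in every rat. The group median on the log2(FPKM + 1) scale was 2.33, 2.18 and 3.08 for the microglial receptors in rats 12, 24-4 and 33. It was 0.97, 0.69 and 1.26 for the astrocytic receptors and 0.26, 0.39 and 0.51 for the neuronal receptors. The difference microglial minus neuronal was 2.14 ± 0.40, microglial minus astrocytic 1.55 ± 0.24 and astrocytic minus neuronal 0.59 ± 0.25. With a pseudocount of 0.1 these were 3.63, 2.22 and 1.40. With means over members, which give P2rx6 its weight, astrocytic minus neuronal was 0.02. The 4 microglial receptors together took 74.9%, 79% and 69.9% of the summed FPKM of the 10 genes.

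Of 12 pairs of single genes compared within rats, 10 had the same sign in all 3. P2rx7 exceeded P2ry1 by 1.58 ± 0.34 and P2rx5 by 2.18 ± 0.48 on the log2(FPKM + 1) scale, P2ry13 exceeded P2ry14 by 1.29, 1.54 and 1.67 in rats 12, 24-4 and 33, and P2rx6 exceeded P2rx3 by 2.41 ± 0.27. The exact sign-flip permutation test, two-sided, gave p = 0.25 for these 10 pairs, the smallest 3 rats allow, and 0.3 after Benjamini-Hochberg adjustment over the 12, so none could pass 0.05.

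None of the receptors was called variable between the rats. Of the 10 genes, 6 had a mean FPKM of at least 1 and entered the test (P2rx4, P2rx6, P2rx7, P2ry6, P2ry13 and P2ry14), of which 0 passed at an adjusted limma p under 0.05 and 0 at an unadjusted p under 0.05, against 0.102% and 5.96% of all tested genes. The smallest limma p-values were 0.132 for P2ry6 (adjusted p = 0.971) and 0.136 for P2ry13 (adjusted p = 0.976). The SD between rats was 0.65 for P2ry6 and 0.63 for P2ry13 on the log2(FPKM + 1) scale, where genes of their level had 0.40 and 0.39, and 0.25 for P2rx4, where genes of its level had 0.35. With 3 rats the differences described here are therefore values of single animals.

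Over all 10 receptors, 6 were highest in rat 33, 3 in rat 24-4 and 1 in rat 12. Of the 6 tested receptors, 5 were highest in rat 33 and 1 in rat 24-4, where 42% and 34.2% of all tested genes were. P2ry14 reached the mean of 1 FPKM only through its value in rat 33, and P2ry1, at a mean of 0.99, was not tested. P2rx4 was lowest in rat 33, as were 28.9% of tested genes. P2rx4 also stayed lowest in rat 33 with the mitochondrial genome left out (17.5, 16.6 and 12.6 FPKM in rats 12, 24-4 and 33) and with library medians made equal (13.2, 14.8 and 9.38 FPKM). P2rx7, P2ry6, P2ry13, P2ry14 and P2rx6 stayed highest in rat 33 under both. Leaving out the mitochondrial genome raised the median tested gene by 0.41, 0.20 and 0.31 on the log2(FPKM + 1) scale in rats 12, 24-4 and 33, and under it P2rx4 was highest in rat 12 and P2ry13 lowest in rat 24-4.

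**Figure D2:**
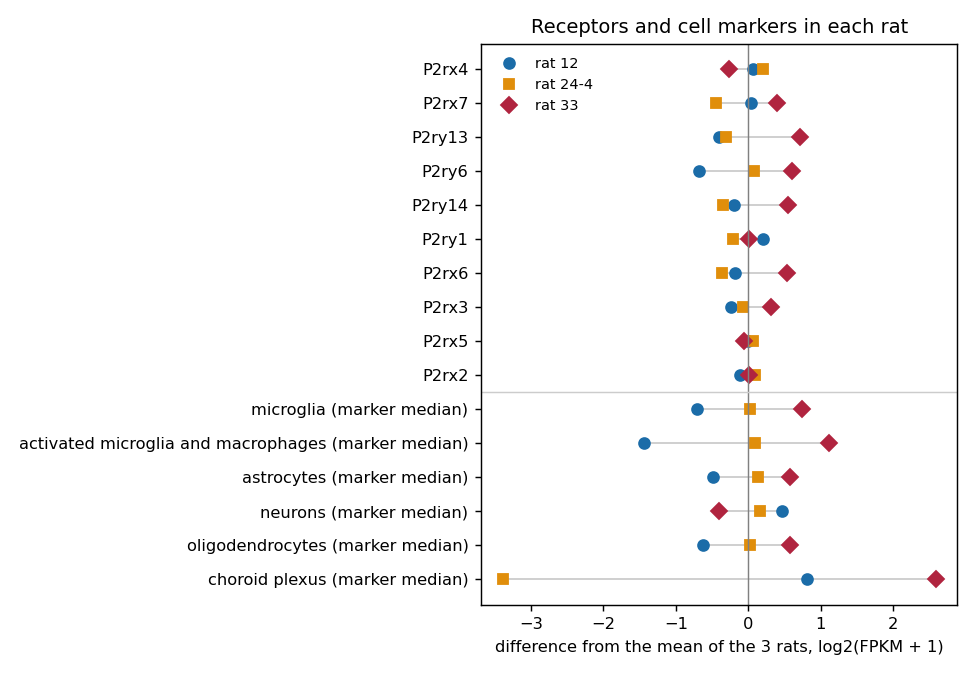
Difference of log2(FPKM + 1) from the mean of the 3 rats for each receptor (above the line) and for the median of 6 cell marker lists (below it), with 1 symbol per rat. P2ry6 runs from -0.68 in rat 12 to 0.60 in rat 33 beside -0.71 and 0.74 for the microglial markers and -0.62 and 0.57 for the oligodendrocyte markers, and P2rx4 runs the other way, with -0.27 in rat 33.

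Set against microglial markers within each rat, the microglial receptors differed in how steady they were. The yardstick was the median of 9 microglial markers, P2ry12 left out. It deviated from its mean over the rats by -0.67, 0.03 and 0.64 on the log2(FPKM + 1) scale in rats 12, 24-4 and 33. In all 3 rats the median marker was Cx3cr1 (15.4, 25.5 and 39.7 FPKM), so each difference below is from this gene alone. Other markers of the 9 had wider or narrower ranges, such as Trem2 (5.07, 18 and 27.1 FPKM) and Tmem119 (8.89, 13.8 and 17 FPKM). On this scale P2ry6 lay below the median by a nearly constant amount, with differences of -2.61, -2.54 and -2.63. The SD of that difference was 0.05, and 0.189% of the 13745 tested genes outside the 9 markers were as steady. Adding 1 to FPKM shrinks differences of low genes such as P2ry6, and the near constancy depended on it. In plain FPKM P2ry6 had 1.69, 3.57 and 5.58 in rats 12, 24-4 and 33. Its ratio to Cx3cr1 was lower in rat 12 than in the other rats, so plain ratios were not constant. An SD with a smaller pseudocount was not computed. P2ry13 gave -1.97, -2.57 and -2.15 (SD 0.31, with 8.2% of genes as steady). P2rx7 gave -1.43, -2.61 and -2.39 (SD 0.63, 43.3% as steady), near the median SD of 0.67 over the tested genes. P2rx4 gave -0.24, -0.80 and -1.89 (SD 0.84, 76.4% as steady), and lay furthest below this median in rat 33. Steadiness on this scale did not follow the grouping by cell type, since neuronal P2rx6 (SD 0.45, 19% as steady) was steadier than P2rx7 and P2rx4. Astrocytic P2ry14 had an SD of 0.43 (17.4% as steady). It lies near 1 FPKM, where adding 1 shrinks differences strongly, and it passed the filter only through rat 33. Its SD is therefore not comparable with those of P2rx7 and P2rx4. These are descriptions of 3 libraries. Each share of genes as steady counts the receptor itself, and the 26 genes with an SD up to that of P2ry6 include P2ry6.

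**Figure D3:**
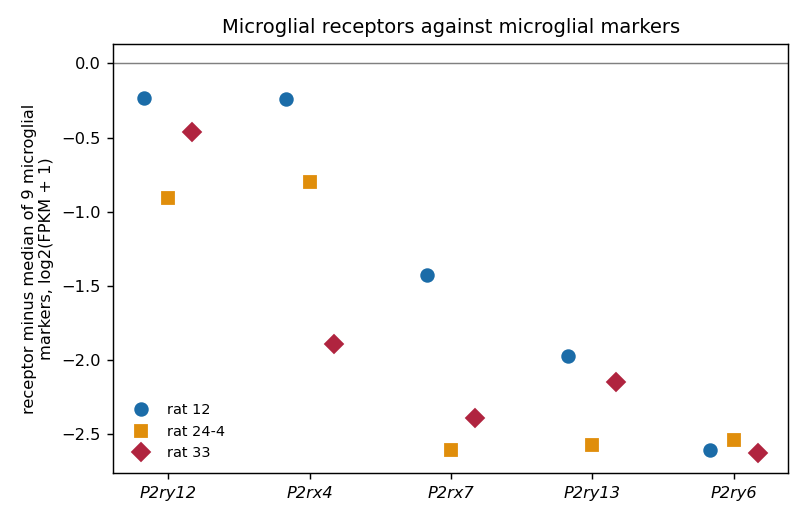
Level of P2ry12 and of the 4 microglial receptors minus the median of 9 microglial markers in the same rat, on the log2(FPKM + 1) scale, with 1 symbol per rat. That median was Cx3cr1 in every rat, and 0 means its level. On this scale the 3 symbols of P2ry6 nearly coincide, between -2.63 and -2.54, while those of P2rx4 spread from -0.24 in rat 12 to -1.89 in rat 33. Plain FPKM ratios of P2ry6 to Cx3cr1 were less even, with rat 12 the lowest.

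On the log2(FPKM + 1) scale P2ry13 kept a nearly constant distance to P2ry12, its neighbour on the chromosome. P2ry12, which encodes the ADP receptor that guides microglial processes, had 12.9, 13.1 and 28.5 FPKM in rats 12, 24-4 and 33, and exceeded P2ry13 by 1.74, 1.66 and 1.69 on the log2(FPKM + 1) scale. The SD of that difference was 0.04, and 0.189% of 13753 tested genes, P2ry12 included, were as steady against P2ry13. P2ry13 rests on 61, 75 and 133 fragments in rats 12, 24-4 and 33, and its Poisson intervals given above are wide beside that SD. Adding 1 to FPKM also shrinks differences of low genes. An SD this small therefore does not show that the true distance was constant. The loci are 9.49 kb apart, and P2ry14 lies 83.1 kb from P2ry13 on the other side. P2ry12, P2ry13 and P2ry14 lie wholly within the locus of Med12l, a Mediator subunit gene on the opposite strand. Med12l had 2.39, 1.78 and 1.68 FPKM, lowest in rat 33, where all 3 receptors were highest. Because it is not stated whether counting used the strand, fragments of Med12l and of these receptors cannot be told apart with certainty, which also touches the difference between P2ry12 and P2ry13.

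Other receptors also had close neighbours. P2rx3 overlaps the first 265 bases of Ssrp1, a chromatin factor gene on the opposite strand with 31.3, 33.1 and 35.4 FPKM in rats 12, 24-4 and 33, which leaves the low P2rx3 values uncertain. P2rx6 starts 702 bases from Lrrc74b, which runs the other way and had 2.39, 1.12 and 6.72 FPKM, in the same order of rats as P2rx6. P2rx4, P2rx7, P2ry6 and P2rx2 had no other locus within 1 kb.

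By pattern over the 3 rats, the nearest of 54 tested cell markers differed between the receptors. Nearness was the root mean square difference of log2(FPKM + 1) centred on the mean of the rats. Counts of genes as near include the marker itself. For P2ry6 they were Cx3cr1, a microglial chemokine receptor (0.04, with 22 of 13753 tested genes as near), and the oligodendrocyte genes Mag (0.04) and Mbp (0.05). Cx3cr1 was also the median marker used above in every rat, so its nearness repeats the comparison of P2ry6 with that median. For P2ry13 they were P2ry12 (0.03, 26 genes as near), the mural gene Pdgfrb (0.06) and the astrocyte gene Aldh1l1 (0.06). P2rx4 was nearest to the neuronal gene Stmn2 (0.04, 121 genes as near) and the astrocyte genes Aldoc (0.08) and Slc1a2 (0.17). P2rx6 was nearest to the endothelial gene Kdr (0.03) and the oligodendrocyte precursor gene Pdgfra (0.04), and P2ry14 to the same genes (0.04 and 0.05). P2rx7 was nearest to Plac8 (0.07), Pdgfra (0.13) and Kdr (0.13). With 3 points per gene, markers of several cell types were near each receptor.

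The other P2 receptors ranged from P2ry12 downwards. Of 5 genes, 3 were tested, 0 were called (0.102% of all tested genes were), and all 3 were highest in rat 33, as were 42% of all tested genes. Among the 3, P2ry4 had 1.49, 0.492 and 1.83 FPKM in rats 12, 24-4 and 33. It reached the mean of 1 FPKM only through its value in rat 33, so its place in that count was partly set by the filter. P2ry2, a receptor for ATP and UTP, had 1.08, 2.29 and 2.51 FPKM in rats 12, 24-4 and 33. P2ry10, whose product is known from human and mouse to respond to lysophosphatidylserine, was listed at 0.0224, 0 and 0.0791 FPKM.

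Genes of the response to P2X7 were higher in rat 33 in level but were not called. Of 8 listed genes, 6 were tested, 0 passed the adjusted limma threshold, and all 6 were highest in rat 33, against 42% of all tested genes. Among the 6, Nlrp3 had 0.869, 1.13 and 2.98 FPKM in rats 12, 24-4 and 33. It lay near the filter of 1 FPKM in rats 12 and 24-4 and passed it clearly only through rat 33. The highest were Nek7, a kinase that activates NLRP3, with 23.2, 16 and 30.4 FPKM in rats 12, 24-4 and 33, and Il18, a cytokine processed by caspase-1, with 3.17, 3.16 and 13.4 FPKM. Pycard, the adaptor of the inflammasome, had 1.4, 3.94 and 8.53 FPKM, and Pycard and Il18 were the 2 genes of the list with an unadjusted limma p under 0.05, which 5.96% of all tested genes had. Il1b was lowest of those not at 0, with 0.327, 0.166 and 0.385 FPKM, and Kcnk6 was listed at 0. The median deviation of the list from the mean of the rats was -0.52, -0.25 and 0.76, beside -0.71, 0.03 and 0.74 for microglial markers and -0.06, 0.01 and 0.07 for all tested genes; the part of microglial RNA in it was not tested.

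Genes of ATP release had another order of rats. Of 8 genes, 6 were tested, 0 were called, 5 were highest in rat 24-4 (34.2% of all tested genes were) and 5 lowest in rat 33 (28.9% were). Vdac1, an outer mitochondrial channel, had 125, 154 and 118 FPKM in rats 12, 24-4 and 33, and Gja1, which encodes connexin 43 of astrocytes, had 80.2, 99.9 and 187 FPKM. Calhm1 was lowest at 0.0622, 0 and 0.587 FPKM.

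Among 12 genes that break down or convert nucleotides, 10 were tested and 0 were called. Enpp2, Entpd2 and Entpd3 had an unadjusted limma p under 0.05, as had 5.96% of all tested genes. Enpp2, which encodes autotaxin and is made by choroid plexus and oligodendrocytes, had 264, 67.5 and 865 FPKM in rats 12, 24-4 and 33, and Ak1, an adenylate kinase, had 24, 44 and 24.1 FPKM. The ectonucleotidase gene Entpd1 was listed at 0 in all rats, although it is a known gene of microglia and vessels, and such a value can be a failed estimate. The next lowest, Acpp, had 0.112, 0.0698 and 0.132 FPKM. Entpd2, an ATP-hydrolysing enzyme of the cell surface, had 8.51, 21.1 and 29.3 FPKM, and Entpd3 had 5.92, 4.52 and 1.09 FPKM, the opposite order of rats. Nt5e, which makes adenosine from AMP, had 4.19, 4.34 and 5.6 FPKM.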

How the data were processed

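Messenger RNA of motor cortex was sequenced in 3 rats of 1 group. The values deposited by the authors are FPKM per gene, made by counting fragments, normalizing and a Perl script, per the series' design text. The submitters' processing notes list HISAT2 2.0.4, StringTie 1.3.0 and the build Rnor_6.0. How values were normalized, and whether strand was used, is not given in the sources used here.

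Analysis used log2(FPKM + 1), on which differences of low genes appear too small. The limma test (version 3.58.1, R 4.3.3) took genes whose mean FPKM was 1 or more. It fitted an intercept per gene with a trended, robust prior of 7.96 degrees of freedom and set residual over prior variance against F, one-sided, with Benjamini-Hochberg adjustment over all genes tested and a threshold of 0.05. The procedure was tested on simulated data. Short loci, up to 400 bases, gave the depth: there 91.3% of 690, 91.3% of 676 and 91.9% of 717 values came out whole within 0.02 in rats 12, 24-4 and 33. All 10 receptors were described. Genes of the 4 lists of other P2 receptors, ATP release, nucleotide breakdown and P2X7 response were named where they were the 2 highest or the lowest of a list or passed the test. Nt5e, Pycard, Entpd2, Entpd3, Acpp, Nlrp3 and P2ry4 were named after their values were seen. Of 100 listed genes 99 were matched, and Pecam1 was not. For P2rx6 and P2ry14 the third nearest marker is not reported here. Members, groups, lists and pairs were chosen with earlier results of these data known. Python 3.11.15, with numpy 2.4.6, pandas 2.3.3, scipy 1.17.1 and matplotlib 3.10.9, served for the rest.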

Additional observations from a re-analysis of the deposited data

How the results depend on the processing

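The count of receptors called variable was 0 under all 9 alternatives (pseudocount of 0.1, mean FPKM of at least 0.1, no filter, a prior that is not robust, mitochondrial genome left out, equal medians, and each rat left out), with unadjusted limma p-values of 0.0923 or more; with a lower or no filter all 10 were tested. Over all genes the limma calls numbered 14, against 23 with the smaller pseudocount, 54 with equal medians, 104 without rat 12, 64 without rat 33 and 0 under the other 5 alternatives. Microglial minus neuronal receptors moved to 3.63, microglial minus astrocytic to 2.22 and astrocytic minus neuronal to 1.40 with a pseudocount of 0.1, which weighs low genes more. With means over members, astrocytic minus neuronal moved to 0.02. With 1 rat left out these differences ran from 1.93 to 2.32 for microglial minus neuronal, 1.42 to 1.65 for microglial minus astrocytic and 0.51 to 0.73 for astrocytic minus neuronal. The 2 of 48 pair values that reversed were P2ry14 minus P2ry1, -0.02 with all rats, which ran from -0.29 to 0.18 with 1 rat left out. Of 50 level values, 48 moved by less than 1 SD; with the mitochondrial genome left out, P2rx4 was 4.04 and P2rx5 0.46. Low depth limits P2rx2, P2rx3 and P2rx5 most.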
